A study of Mus musculus with 12 samples.

Results

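The T cell and NK cell genes described here are 10 genes chosen by symbol among the 21956 genes of the count table. Cd3d, Cd3e and Cd3g encode the signalling chains of the T cell receptor complex, and Cd8a and Cd4 encode its co-receptors. Nkg7, Gzma, Gzmb and Prf1 belong to the cytotoxic granule, and Klrb1c encodes the NK cell receptor NK1.1. All 10 were found in the table, each on 1 row, and their 120 deposited values were whole numbers.

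RNA from mouse brain tissue next to the hematoma was sequenced in 3 libraries for each of 4 groups: Sham-Fabp4fl_fl, Sham-Fabp4CKO, ICH-Fabp4fl_fl and ICH-Fabp4CKO. ICH is intracerebral hemorrhage, made by collagenase in the right striatum with tissue taken at 48 h, and sham mice had the operation without collagenase. All mice carried floxed Fabp4, the gene of a fatty acid-binding protein, and Fabp4CKO mice also carried a tamoxifen-inducible Cre under the microglial gene Tmem119, with tamoxifen for 7 days ending 14 days before surgery. Whether the Fabp4fl_fl mice received tamoxifen, and the age of either genotype, were not stated in the sources used here, and the deletion was aimed at microglia and not at T cells or NK cells.

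T cells recognize antigen through a receptor that signals only as a complex with the CD3 chains, and CD8 or CD4 assigns a T cell to MHC class I or class II. Cytotoxic T cells and NK cells store perforin, which opens membranes, and granzymes, the proteases that enter through it, in granules that they release onto target cells. Both cell types are rare in healthy brain tissue and enter it from blood after injury. In bulk tissue, fewer cells of a type and less RNA per cell cannot be told apart.

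RefSeq promoter windows of build GRCm38.p6 were matched for 9 of the 10 members, all but Cd4. The 150 bases before the start are shown for 4 of them: Cd3g and Cd3d, whose starts lie 1354 bases apart on opposite strands of chromosome 9, and Nkg7 and Gzma, of the cytotoxic granule. They lie at chr9:44980432-44980581 on the minus strand, chr9:44981636-44981785 on the plus strand, chr7:43436988-43437137 on the plus strand and chr13:113100982-113101131 on the minus strand. Capitals mark the letters TGTGGT (the RUNX motif), AGGAAG (an ETS motif) and AGGTGT (the T-box motif) on either strand.
Cd3g: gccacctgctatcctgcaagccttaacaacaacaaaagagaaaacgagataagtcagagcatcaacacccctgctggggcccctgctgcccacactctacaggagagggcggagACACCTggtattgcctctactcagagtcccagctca
Cd3d: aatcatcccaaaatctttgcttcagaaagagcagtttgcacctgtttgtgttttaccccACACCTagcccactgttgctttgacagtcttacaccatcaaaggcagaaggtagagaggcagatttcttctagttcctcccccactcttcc
Nkg7: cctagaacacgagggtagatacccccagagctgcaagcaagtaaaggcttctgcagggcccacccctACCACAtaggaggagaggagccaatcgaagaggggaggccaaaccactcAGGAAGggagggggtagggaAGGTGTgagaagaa
Gzma: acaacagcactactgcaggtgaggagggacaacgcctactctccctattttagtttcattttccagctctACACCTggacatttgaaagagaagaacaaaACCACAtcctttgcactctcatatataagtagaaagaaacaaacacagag

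RUNX, ETS and T-box factors are known regulators of T cell and NK cell genes. RUNX letters were found in 5 of the 9 members' 150-base windows, against 8.4% of 32851 windows of all genes. ETS letters were in 4 of them against 19.7%, and T-box letters in 5 against 6.86%. Nkg7 held 1 match to each motif, Gzma held 1 RUNX and 1 T-box match, Cd3g and Cd3d each held 1 T-box match, and Cd8a held none. No matches to different motifs overlapped. For Gzmb and Prf1 the bases after the RefSeq start were not found in a GENCODE transcript of the gene, so these 2 windows may not lie at the start that GENCODE gives. A match describes letters only.

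Fabp4, the targeted gene, had 2, 1 and 2 counts in Sham-Fabp4fl_fl, 0 in each Sham-Fabp4CKO library, 46, 63 and 24 in ICH-Fabp4fl_fl and 5, 3 and 10 in ICH-Fabp4CKO, so after ICH every Fabp4CKO library was below every Fabp4fl_fl library. The libraries held 15650813 to 22406216 counts in total. A single count corresponded to 0.0448 to 0.0703 CPM, where CPM are counts scaled to a common library size by TMM, the normalization used throughout. A value of 3 counts or fewer in a library was taken as at the floor, and this floor covers counting error only. Of the 12 libraries, 2 stood apart: ICH-Fabp4CKO library 1 held 1 Y-linked count, against 1302 to 2251 in the other 11 libraries, and in ICH-Fabp4fl_fl library 1 the mitochondrial share was 16.3%, against 7.90 to 11.9% elsewhere. The main counts below are also given without them.

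Without Cd4, the members lay near the floor in sham tissue and above it after ICH. In Sham-Fabp4CKO all 27 values of the 9 genes were at or under 3 counts, and in Sham-Fabp4fl_fl 24 of 27 were. In ICH-Fabp4fl_fl none of the 27 was, and in ICH-Fabp4CKO 4 of 27 were. The 9 genes together had 21, 14 and 9 counts in the Sham-Fabp4fl_fl libraries and 7, 4 and 1 in Sham-Fabp4CKO. They had 169, 341 and 193 in ICH-Fabp4fl_fl and 104, 77 and 99 in ICH-Fabp4CKO. Every ICH library therefore exceeded every sham library, and every ICH-Fabp4CKO library lay below every ICH-Fabp4fl_fl library.

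**Figure D1:**
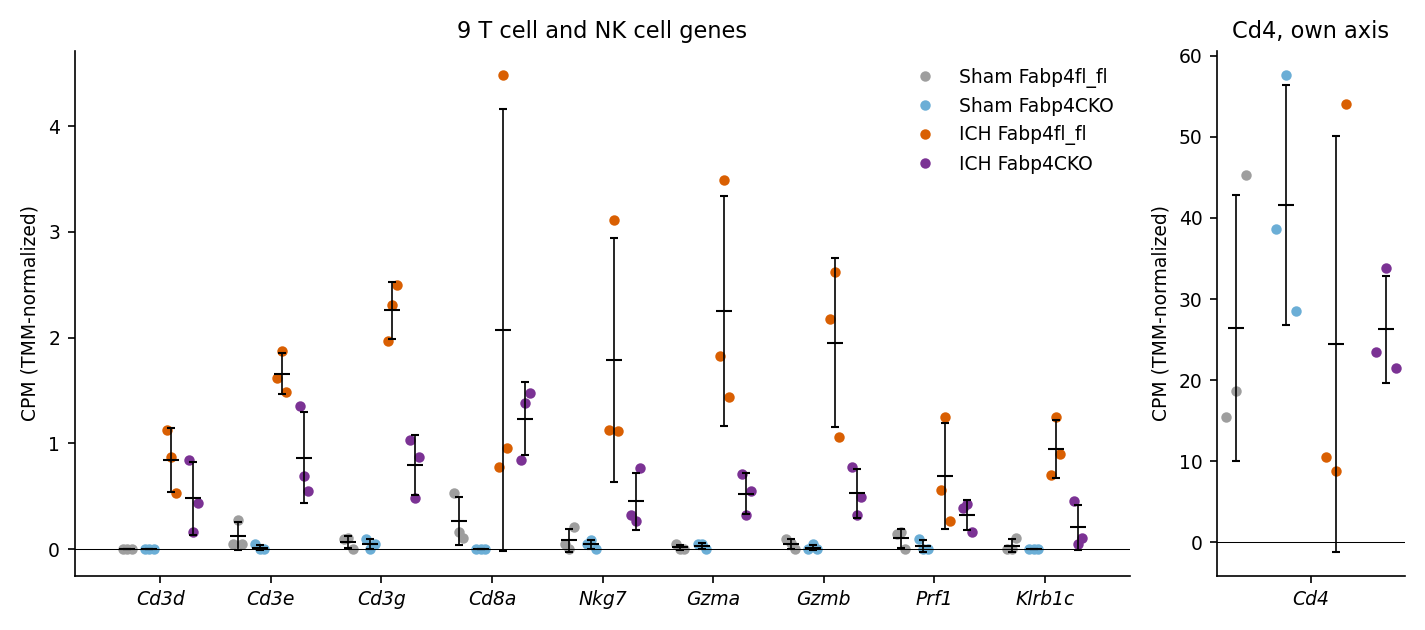
TMM-normalized CPM of the 10 members in each of the 12 libraries, with the mean and SD of each group of 3 as black bars, 9 genes on the left axis and Cd4 on its own axis. The 9 genes sat near 0 in both sham groups and higher after ICH, whereas Cd4 spanned 8.79 to 57.7 CPM with no separation of the groups.

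The comparison of ICH-Fabp4fl_fl with Sham-Fabp4fl_fl asked which of these genes were more abundant beside a hematoma. Of the 10 members, 7 rose (Cd3e, Cd3g, Cd8a, Nkg7, Gzma, Gzmb and Klrb1c), Cd4 was tested and not called, and Cd3d and Prf1 did not pass the filter on low counts. Over all genes tested, 26.2% rose and 19.3% fell at an adjusted p under 0.05. These 7 passed the filter through the ICH libraries, where they were high. All members except Cd4, 9 of 10, were higher in every ICH library than in every sham library, as were 34.4% of the genes tested. Without ICH-Fabp4fl_fl library 1 these counts were again 7 and 9. Other cell types moved in the same comparison: all 7 monocyte and macrophage, all 4 pan-leukocyte, all 5 microglial, all 3 astrocyte and all 3 endothelial genes rose, and 4 of 6 neuron genes fell. Their part in the members' rise was not tested.

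Among the CD3 chains, Cd3g (ENSMUSG00000002033) had 2, 2 and 0 counts in the sham libraries and 28, 37 and 47 after ICH. Cd3e had 1, 5 and 1 counts in sham and 23, 30 and 28 after ICH. Cd3d had 0 counts in each sham library and 16, 14 and 10 after ICH. The 3 chains thus moved from the floor to between 10 and 47 counts. Cd3g rose by 4.88 on the log2 scale (SE 0.63, adjusted p = 0.00126, quasi-likelihood F-test of edgeR, adjusted over all genes by Benjamini-Hochberg) and Cd3e by 3.66 (SE 0.62, adjusted p = 0.00375, same test). Cd3d, which was not tested, was at least 15.9-fold higher, taking 3 counts over the sham group as the floor, and an exact two-sided permutation test gave p = 0.1, the smallest that 3 against 3 libraries allow.

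Cd8a, the co-receptor of cytotoxic T cells, had 11, 3 and 2 counts in sham and 11, 72 and 18 after ICH. One ICH library, number 2, held most of the Cd8a counts, and sham library 1 equalled ICH library 1 in counts, though not in CPM (0.530 against 0.774). Cd8a rose by 2.87 on the log2 scale (SE 0.90, adjusted p = 0.0352, quasi-likelihood test). Without ICH-Fabp4fl_fl library 2 the change was 1.59 (adjusted p = 0.149975), without Sham-Fabp4fl_fl library 2 it was 2.58 (adjusted p = 0.114), and without Sham-Fabp4fl_fl library 3 it was 2.44 (adjusted p = 0.106), so the call rested on these libraries. With the replicate number as a block the adjusted p was 0.0550.

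Among the genes of the cytotoxic granule, Gzma, the gene of granzyme A, had 1, 0 and 0 counts in sham and 26, 56 and 27 after ICH. Gzmb, the gene of granzyme B, had 2, 1 and 0 counts in sham and 31, 42 and 20 after ICH. Nkg7, a granule membrane protein gene, had 1, 0 and 4 counts in sham and 16, 50 and 21 after ICH. All 3 were highest in ICH-Fabp4fl_fl library 2. The ratio of ICH to sham for Gzma was 130 with a 95% exact counting interval of 22.8 to 5168, since sham held 1 count in all, and the adjusted p was 0.00121 in the quasi-likelihood test. The ratio for Gzmb was 36.9 (counting interval 12.2 to 182, adjusted p = 0.00208), and Nkg7 rose by 4.23 on the log2 scale (SE 0.87, adjusted p = 0.00797, same test).

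Prf1, the gene of perforin, had 3, 3 and 0 counts in sham and 8, 20 and 5 after ICH. It lay nearest the floor of the granule genes and was not tested. Its ratio of ICH to sham was 6.54 (counting interval 2.71 to 19.1, exact permutation p = 0.1). Klrb1c had 0, 0 and 2 counts in sham and 10, 20 and 17 after ICH. Its ratio was 28.0 (counting interval 7.32 to 238, adjusted p = 0.00633, quasi-likelihood test). Klrb1c has close relatives in the same receptor family, and reads may be shared among them: Klrb1b, the only other member of that family above 6 counts in any library, had 4, 0 and 0 rounded counts in sham and 34, 26 and 9 after ICH. In Fabp4CKO Klrb1b had 0 in sham and 15, 14 and 25 after ICH (adjusted p = 0.00994, quasi-likelihood test). There it passed the filter on low counts through the ICH libraries, where it was high.

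Cd4 differed from the other 9 members. It had 321, 340 and 878 counts in Sham-Fabp4fl_fl and 150, 141 and 1016 in ICH-Fabp4fl_fl. Libraries 1 and 2 of both groups were low and library 3 of both was high, so the groups overlapped. The log2 change was -0.12 (SE 0.75, adjusted p = 0.904, quasi-likelihood test). It was -1.52 (adjusted p = 0.0353) without ICH-Fabp4fl_fl library 3 and had the opposite sign, 0.47 (adjusted p = 0.675), without Sham-Fabp4fl_fl library 3.

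The comparison of ICH-Fabp4CKO with Sham-Fabp4CKO repeated the question in mice with the microglial deletion. Of the 10 members only Cd3e, Cd8a and Cd4 passed the filter, and Cd3e and Cd8a rose. Cd3e and Cd8a passed it through the ICH libraries, where they were high. Over all genes tested, 24.5% rose and 11.1% fell. Again 9 of 10 members, all but Cd4, were higher in every ICH library than in every sham library, against 33.2% of the genes tested. Without ICH-Fabp4CKO library 1 the counts were again 2 and 9. In this comparison all 7 monocyte and macrophage, all 4 pan-leukocyte and all 5 microglial genes rose too, and none of 6 neuron genes was called. The filter decided this count of calls: with no filter 7 members rose, and with all 12 libraries in one fit, as with DESeq2, 8 did. The shares of all genes that rose in these other fits are not given here.

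Cd3e had 1, 0 and 0 counts in Sham-Fabp4CKO and 21, 13 and 10 in ICH-Fabp4CKO, a ratio of 55.0 (counting interval 9.38 to 2223, adjusted p = 0.0103, quasi-likelihood test). Without Sham-Fabp4CKO library 1, 2 or 3 its adjusted p was 0.0558, 0.0545 and 0.0551, so the call was lost without any one of them, while the fitted log2 change was 7.06, 4.87 and 4.88, against 5.32 with all. Cd8a had 0 counts in every sham library and 13, 26 and 27 after ICH (adjusted p = 0.00876, same test). It was at least 27.5-fold higher, taking 3 counts over the sham group as the floor. Unlike in ICH-Fabp4fl_fl, no single ICH library held most of the Cd8a counts.

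Cd3d had 0 counts in each Sham-Fabp4CKO library and 13, 3 and 8 after ICH, at least 10.008-fold higher, taking 3 counts over the sham group as the floor. Cd3g had 2, 0 and 1 counts in sham and 16, 9 and 16 after ICH, a ratio of 17.1 (counting interval 5.45 to 86.3). Both were higher in every ICH library than in every sham library, as Cd3e was, and neither passed the filter. Gzma had 1, 1 and 0 counts in sham and 11, 6 and 10 after ICH, and Gzmb had 0, 1 and 0 in sham and 12, 6 and 9 after ICH. Nkg7 had 1, 2 and 0 counts in sham and 5, 5 and 14 after ICH, and Prf1 had 2, 0 and 0 in sham and 6, 8 and 3 after ICH. The ratios of these 4 granule genes were 16.9, 33.8, 10.008 and 10.6. Their counting intervals were wide, the lowest bound being 2.52 for Prf1. Klrb1c had 0 counts in sham and 7, 1 and 2 after ICH, at least 4.17-fold higher with 3 counts over the sham group as the floor. In 2 of its 3 ICH libraries Klrb1c was still at or under 3 counts. Exact permutation tests of these untested members gave p = 0.1 each, the smallest possible.

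Cd4 had 837, 1288 and 621 counts in Sham-Fabp4CKO and 364, 634 and 393 in ICH-Fabp4CKO. ICH library 2 overlapped the sham range in CPM (33.8 against 28.5 in the lowest sham library). The log2 change was -0.66 (SE 0.30, adjusted p = 0.119, quasi-likelihood test). It was -0.89 (adjusted p = 0.0236) without ICH-Fabp4CKO library 2, and -0.63 (adjusted p = 0.0468) with the replicate number as a block.

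The comparison of ICH-Fabp4CKO with ICH-Fabp4fl_fl asked whether the microglial deletion went with other levels of these genes after hemorrhage. No member passed the adjusted threshold, and 0.00% of the 14600 genes tested did in edgeR's quasi-likelihood test. At an unadjusted p under 0.05 with a fold change of at least 1.5, 5 members were lower in Fabp4CKO (Cd3g, Nkg7, Gzma, Gzmb and Klrb1c), against 4.43% of the genes tested. In 6 members (those 5 and Cd3e) every Fabp4CKO library lay below every Fabp4fl_fl library, against 11.5% of the genes tested. These 6 passed the filter through the ICH-Fabp4fl_fl libraries, where they were high, so their selection leans towards lower values in Fabp4CKO. The other members, Cd3d, Cd8a, Cd4 and Prf1, overlapped. DESeq2 called 2 members lower, Cd3g (adjusted p = 0.0417) and Gzma (adjusted p = 0.0260), and edgeR's exact test called Gzma (adjusted p = 0.0351). The shares of all genes that these 2 tests called are not given here, so the calls cannot be set against them.

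**Figure D2:**
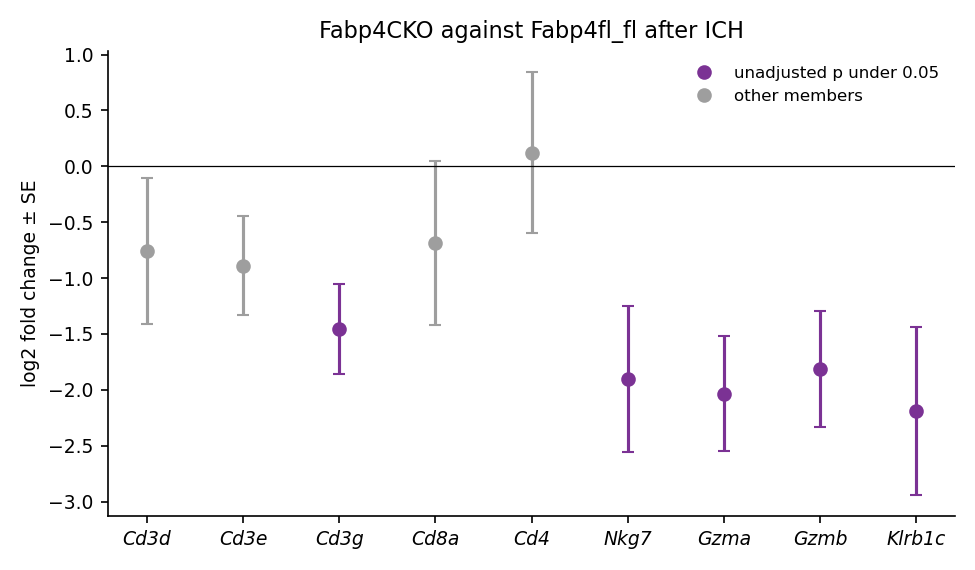
Log2 fold change of ICH-Fabp4CKO against ICH-Fabp4fl_fl for the 9 members that passed the filter, with bars of 1 SE from edgeR's quasi-likelihood fit, purple where the unadjusted p was under 0.05. Gzma, Gzmb, Nkg7 and Klrb1c lay lowest, between -1.82 and -2.19, Cd8a and Cd3d nearer 0, and Cd4 at 0.12.

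Among the granule genes, Gzma had 26, 56 and 27 counts in ICH-Fabp4fl_fl and 11, 6 and 10 in ICH-Fabp4CKO, or 2.25 ± 1.09 against 0.526 ± 0.197 CPM (SD, n = 3). Its log2 change was -2.04 (SE 0.52, unadjusted p = 0.00637, adjusted p = 0.313, quasi-likelihood test). Gzmb had 31, 42 and 20 counts against 12, 6 and 9, with a log2 change of -1.82 (SE 0.52, adjusted p = 0.331). Nkg7 had 16, 50 and 21 counts against 5, 5 and 14, with a log2 change of -1.90 (SE 0.65, adjusted p = 0.354). In all 3 the lowest Fabp4fl_fl library stayed above the highest Fabp4CKO library in CPM. Klrb1c, with 10, 20 and 17 counts against 7, 1 and 2, changed by -2.19 (SE 0.75, adjusted p = 0.355), and 2 of the 3 Fabp4CKO libraries were at the floor.

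Of the CD3 chains, Cd3g had 28, 37 and 47 counts in ICH-Fabp4fl_fl and 16, 9 and 16 in ICH-Fabp4CKO, with a log2 change of -1.46 (SE 0.40, unadjusted p = 0.00942, adjusted p = 0.318, quasi-likelihood test). Cd3e had 23, 30 and 28 counts against 21, 13 and 10, with a log2 change of -0.89 (SE 0.44, adjusted p = 0.461). Cd3d had 16, 14 and 10 counts against 13, 3 and 8, with a log2 change of -0.76 (SE 0.65, adjusted p = 0.664). Cd3g and Cd3e did not overlap between the genotypes, and Cd3d did. Cd8a had 11, 72 and 18 counts against 13, 26 and 27, with a log2 change of -0.68 (SE 0.73, adjusted p = 0.734). The sign for Cd8a came from ICH-Fabp4fl_fl library 2, without which the change was 0.55. Prf1 had 8, 20 and 5 counts against 6, 8 and 3, a ratio of 0.481 (counting interval 0.251 to 0.889, exact permutation p = 0.3), and was not tested by the fit. Cd4 had 150, 141 and 1016 counts against 364, 634 and 393, with a log2 change of 0.12 (SE 0.72, adjusted p = 0.961), and its sign changed when any of 3 libraries was left out.

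Without ICH-Fabp4CKO library 1, the library with few Y-linked counts, 5 members were again lower at an unadjusted p under 0.05 in edgeR's fit, but Cd3e (log2 change -1.35, adjusted p = 0.633) took the place of Nkg7 (-1.72, adjusted p = 0.670). The members without overlap were then 7, with Cd3d added. Without ICH-Fabp4fl_fl library 1, the library rich in mitochondrial counts, Cd3g, Nkg7, Gzma, Gzmb and Klrb1c were again the 5, and 6 members did not overlap. Without ICH-Fabp4fl_fl library 3 the members without overlap were 8. With 1 library left out, the groups separate more easily for any gene. The share of all genes is not given for the leave-one-out counts of this paragraph. The count at an unadjusted p was 3 without ICH-Fabp4fl_fl library 2 and 3 without ICH-Fabp4CKO library 2. This comparison uses the same 3 ICH-Fabp4fl_fl libraries as the comparison with sham above, so a high value in those libraries enters both.

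Ptprc, which encodes the pan-leukocyte antigen CD45, was at 71.7, 65.9 and 40.1 CPM in ICH-Fabp4fl_fl and at 122, 33.5 and 181 CPM in ICH-Fabp4CKO. The 9 members without Cd4 summed to 11.9, 21.3 and 10.3 CPM in ICH-Fabp4fl_fl and to 6.72, 4.10 and 5.41 CPM in ICH-Fabp4CKO. The Ptprc ranges overlapped, whereas the summed ranges did not. Per 100 Ptprc counts the 9 members held 16.6, 32.3 and 25.6 counts in ICH-Fabp4fl_fl and 5.49, 12.3 and 2.997 in ICH-Fabp4CKO, with the lowest values in the 2 libraries richest in Ptprc. In Sham-Fabp4fl_fl the same quantity was 28.4, 24.6 and 23.7, and in Sham-Fabp4CKO 14.9, 6.90 and 1.61, from at most 21 member counts a library.

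**Figure D3:**
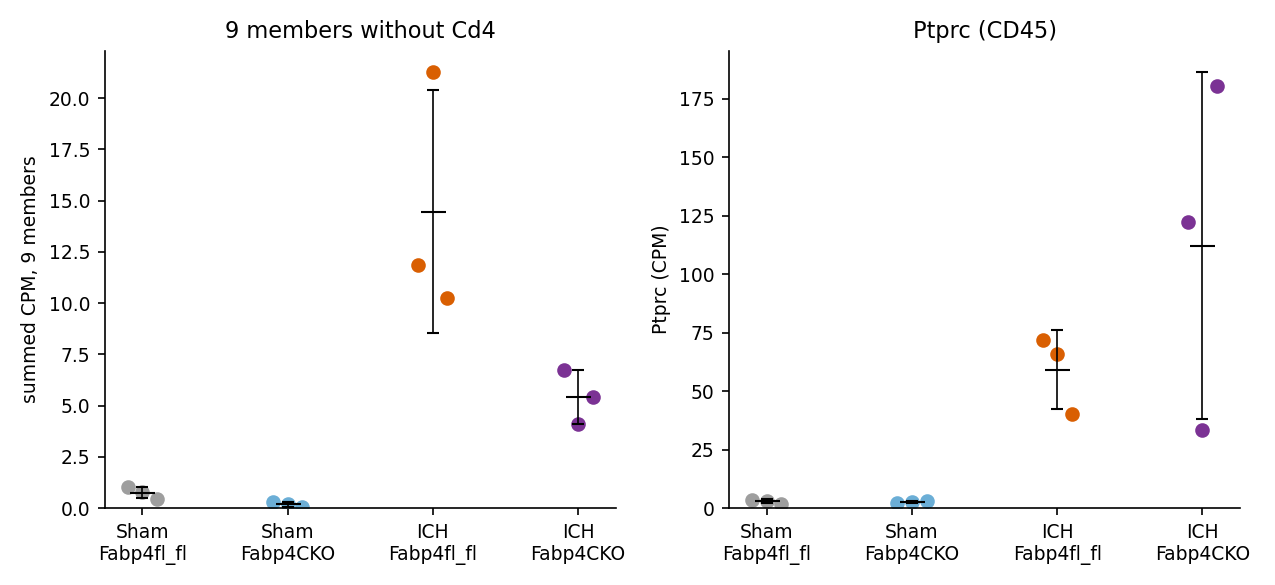
Summed TMM-normalized CPM of the 9 members without Cd4 (left) and CPM of Ptprc (right) in each library, with the mean and SD of each group of 3. After ICH the sums were 10.3 to 21.3 CPM in Fabp4fl_fl and 4.10 to 6.72 CPM in Fabp4CKO, while Ptprc spanned 40.1 to 71.7 and 33.5 to 181 CPM.

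The monocyte, macrophage and neutrophil genes differed between the genotypes in the direction opposite to most members. All 7 monocyte and macrophage genes had a log2 change above 0 in ICH-Fabp4CKO against ICH-Fabp4fl_fl, with a median of 0.88 and a summed level of 1233 to 9171 CPM against 1015 to 1814 CPM. All 6 neutrophil genes tested, of 8 listed, were above 0, with a median of 2.79 and a summed level of 18.2 to 234 CPM against 17.6 to 51.4 CPM. Both B cell genes tested, of 6 listed, and all 4 pan-leukocyte genes were above 0 as well, with medians of 1.40 and 0.61, whereas all 3 endothelial, all 3 oligodendrocyte and all 3 astrocyte genes were below 0, with medians of -1.26, -1.19 and -0.56. The median over the 9 members tested was -1.46, and 8 of them were below 0. Of these, Cd3g, Cd3e, Nkg7, Gzma, Gzmb and Klrb1c passed the filter through the ICH-Fabp4fl_fl libraries, where they were high. The median over all genes was 0.06. None of the myeloid genes passed the adjusted threshold either. Of 5 dendritic cell genes tested 3 were above 0 (median 0.10), and of 5 microglial genes 4 were (median 0.33). In the monocyte and macrophage list and in the neutrophil list ICH-Fabp4CKO library 2 lay inside the ICH-Fabp4fl_fl range and far below libraries 1 and 3, and it was also the lowest of the 3 in the members' sum, though by less. The part of cell numbers in these differences was not tested.

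In sham tissue the genotypes could be compared by the fit for Cd4 alone, since the other 9 members did not pass the filter. Cd4 had a log2 change of 0.66 in Sham-Fabp4CKO against Sham-Fabp4fl_fl (SE 0.43, adjusted p = 0.554, quasi-likelihood test) and was not called, against 0.111% of the genes tested. Its unadjusted p was 0.161, so 0 members were under 0.05 in that fit. In fits that took in low counts Cd8a was lower in Fabp4CKO at an unadjusted p of 0.0114 with no filter (adjusted p = 0.470, edgeR) and 0.00703 in DESeq2, and Cd3e had an unadjusted p of 0.0425 with all 12 libraries in edgeR's fit. DESeq2 called 0 members, but gave no adjusted p for these 2 genes. Without Sham-Fabp4fl_fl library 3 the Cd4 change was 1.31 (adjusted p = 0.0105). Cd8a had 11, 3 and 2 counts in Sham-Fabp4fl_fl and 0 in each Sham-Fabp4CKO library, and Cd3e had 1, 5 and 1 counts against 1, 0 and 0. In both genes every Fabp4CKO library lay below every Fabp4fl_fl library in CPM (exact permutation p = 0.1, the smallest possible). For Cd3e this rested on library size. Sham-Fabp4fl_fl libraries 1 and 3 and Sham-Fabp4CKO library 1 each held 1 count (0.0482, 0.0516 and 0.0462 CPM). The share of all genes without overlap in sham is not given here, so these 2 genes cannot be set against it. For the other 7 members both sham groups were at or near the floor, at most 4 counts in a library, and no difference was detectable at this depth.

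Whether the change after ICH differed between genotypes was tested over all 12 libraries. No member was called, against 0.0199% of the genes tested, and DESeq2 called 0. In edgeR's fit Cd8a was the one member at an unadjusted p under 0.05, with an adjusted p of 0.462. For Cd4 the log2 difference was -0.55 (SE 0.91, adjusted p = 0.881). For the other members no size is given, because at least 1 sham group held 3 counts or fewer in all.

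Cd4 was the most abundant member per length in every group. Per kilobase of merged GENCODE exons, it had a mean level of 6.57 CPM in Sham-Fabp4fl_fl, 10.3 in Sham-Fabp4CKO, 6.06 in ICH-Fabp4fl_fl and 6.51 in ICH-Fabp4CKO. In sham tissue no other member exceeded a mean of 0.0929 CPM per kilobase, the level of Nkg7 in Sham-Fabp4fl_fl. Of the counts of all 10 members, Cd4 held 93.9 to 99.8% in the sham libraries and 29.3 to 89.2% after ICH. In ICH-Fabp4fl_fl the order below Cd4 was Gzma (2.24 CPM per kilobase), Nkg7 (1.95), Gzmb (1.36), Cd3g (0.691), Cd8a (0.570), Cd3d (0.465), Cd3e (0.407), Klrb1c (0.321) and Prf1 (0.268), and each neighbouring pair, Cd4 and Gzma included, overlapped across libraries. In ICH-Fabp4CKO Gzma (0.523), Nkg7 (0.494) and Gzmb (0.368) again followed Cd4, whose libraries (5.33 to 8.38) all lay above those of Gzma (0.318 to 0.707), and the neighbours below Cd4 overlapped.

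The level of Cd4 ran with that of striatal neuron genes in sham tissue. Over the 12 libraries the genes most like it, by Pearson's r of log2 CPM among 15089 genes, were Rxrg (0.954), Kcnh3 (0.951) and Rgs9 (0.945). With Ppp1r1b, which encodes the striatal phosphoprotein DARPP-32 and was on the neuron list, Pearson's r was 0.996 and Spearman's rho 1 over the 6 sham libraries, and r was 0.990 without the 2 libraries farthest from the median. Over the 6 ICH libraries r was 0.832 and rho 0.829, and r was 0.205 without such 2 libraries, so there it rested on them. With other genes of the neuron list, r in sham was 0.985 for Drd1, 0.937 for Rbfox3, -0.827 for Snap25 and -0.714 for Slc17a7. Without the 2 libraries farthest from each gene's median, r was 0.942, 0.938, -0.954 and 0.767. The negative sign for Slc17a7 thus rested on such libraries. After ICH r was 0.812, 0.759, 0.745 and 0.688 for these genes, so there it was not particular to striatal genes. Without such 2 libraries these values were 0.463, 0.379, -0.041 and 0.505, so they too depended on them. Ppp1r1b itself was at 473, 533 and 1415 CPM in Sham-Fabp4fl_fl and 372, 505 and 1335 CPM in ICH-Fabp4fl_fl, with library 3 highest in both, as for Cd4. The libraries share their tissue composition and depth, so these correlations describe them only.

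**Figure D4:**
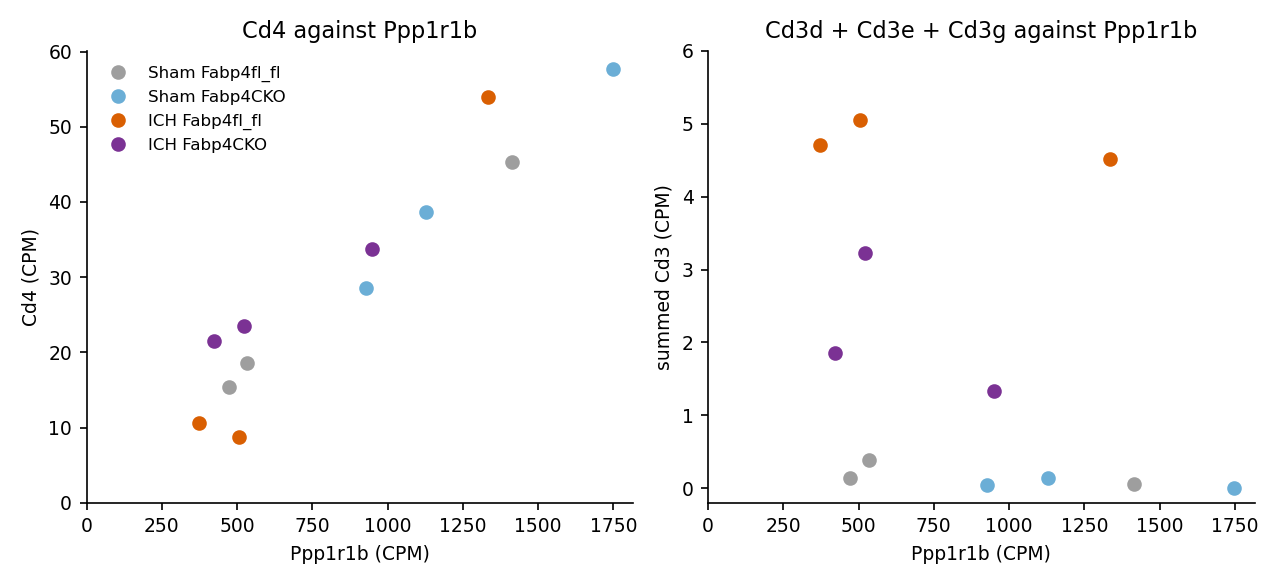
CPM of Cd4 (left) and summed CPM of Cd3d, Cd3e and Cd3g (right) against CPM of Ppp1r1b, a striatal neuron gene, with 1 point for each library in the color of its group. Cd4 climbed with Ppp1r1b in the sham libraries, whereas the Cd3 sum separated ICH from sham at every level of Ppp1r1b, at 1.33 CPM or more after ICH and 0.383 CPM or less in sham.

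Among the members tested over 12 libraries, the 28 pairs without Cd4 had Pearson's r of 0.72 to 0.98, and the 8 pairs with Cd4 had -0.57 to -0.38. The pairs without Cd4 share the step from the floor to the ICH level. Gzma and Gzmb were the closest pair (r = 0.98). Among all genes, Cd8a was most like Cxcl9 (0.957), a chemokine that attracts T cells, Cd8b1 (0.953), the partner chain of Cd8a, and Tcf4 (0.945). Cd8a, Cd8b1 and Cxcl9 were each highest in ICH-Fabp4fl_fl library 2, with 72, 43 and 382 counts. Libraries 1 and 3 of that group held 11 and 18, 6 and 5, and 20 and 90 counts. The part of library 2 in this likeness was not tested. Cd3e was most like Gbp7 (0.981), Cxcl10 (0.972) and Cdsn (0.970). For Gzmb the most like genes were Trf (0.995), Cd34 (0.991) and Cav1 (0.990). The single most like gene was Ccnd1 for Cd3d (0.991), Ckap2 for Cd3g (0.986) and Tulp3 for Nkg7 (0.961). It was Fgfrl1 for Gzma (0.993) and Scfd2 for Klrb1c (0.965).

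Many of the other T cell and NK cell genes, from lists chosen with earlier results of these data known, were as sparse as the members. Of 16 listed T cell receptor and co-receptor genes, 14 were in the table, and 10 passed the filter for Fabp4fl_fl. After ICH 7 of these rose and none fell, where 26.2% of all genes tested rose, among them Cd28 (log2 change 4.68, adjusted p = 0.00104), Cd2 (3.07, adjusted p = 0.0124) and Icos (adjusted p = 0.00186), which had 1 count in all in sham. In Fabp4CKO 6 of 8 tested rose, against 24.5% of all genes tested, among them Cd5 (4.28, adjusted p = 0.00599), Pdcd1 (4.39, adjusted p = 0.00759) and Cd8b1 (adjusted p = 0.00747), which had 1 count in all in sham. The adjusted p-values are from the quasi-likelihood test over all genes. Cd28, Cd2 and Icos in Fabp4fl_fl, and Cd5, Pdcd1 and Cd8b1 in Fabp4CKO, passed the filter through the ICH libraries, where they were high. Of 8 T cell signalling genes only 3 passed the filter in Fabp4fl_fl, where Lck, the kinase that starts signalling from the T cell receptor, rose (1.87, adjusted p = 0.00993). Of 9 transcription factor genes, 5 were tested in Fabp4fl_fl. Only 1, Tcf7, rose (1.27, adjusted p = 0.00896), against 26.2% of all genes tested, and the list median was -0.35. Tcf7 was not near the floor in Sham-Fabp4fl_fl, with 104, 84 and 169 counts. In Fabp4CKO Tcf7 was not called (-0.04, adjusted p = 0.909). There 6 transcription factor genes were tested, and Eomes fell.

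Of 10 NK cell receptor genes 3 passed the filter, with the ICH libraries high, and all 3 rose in both genotypes, against 26.2% of all genes tested in Fabp4fl_fl and 24.5% in Fabp4CKO. Il18rap changed by 5.03 in Fabp4fl_fl (adjusted p = 0.000848) and by 5.30 in Fabp4CKO (adjusted p = 0.00894), quasi-likelihood test. Klrk1, the gene of NKG2D, had 29, 33 and 28 counts in ICH-Fabp4fl_fl and 15, 13 and 21 in ICH-Fabp4CKO, against at most 2 in any sham library. Il2rb changed by 2.68 (adjusted p = 0.00289) and 1.32 (adjusted p = 0.0330). The defining NK cell gene Ncr1 was at or near 0, with 1, 5 and 2 counts in ICH-Fabp4fl_fl, 1, 0 and 0 in ICH-Fabp4CKO and at most 3 in a sham library. The counts of Klrb1c and Klrk1 thus stood beside few counts of Ncr1.

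Of 8 further cytotoxic effector genes, Ctsw and Ccl5 passed the filter, with the ICH libraries high. Both rose in each genotype, beside the same shares of all genes. Ccl5, a chemokine made by T cells, NK cells and other cells, changed by 6.02 in Fabp4fl_fl (adjusted p = 0.000653) and by 6.97 in Fabp4CKO (adjusted p = 0.00589), and Ctsw, a protease of cytotoxic cells, by 3.52 in Fabp4fl_fl (adjusted p = 0.00357), all in the quasi-likelihood test. Ifng, the gene of interferon gamma, stayed at 4 counts or fewer in every library. Of the genes of T cell and NK cell recruitment and growth, 9 of the 12 in the table passed the filter, and all 9 rose in both genotypes, again against 26.2% and 24.5% of all genes tested. Cxcl10, which attracts CXCR3-bearing cells, changed by 6.81 in Fabp4fl_fl (adjusted p = 0.000279) and 6.56 in Fabp4CKO (adjusted p = 0.00572).

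Between the genotypes after ICH none of these lists held a called gene. All 4 signalling genes, all 3 NK cell receptor genes and both effector genes tested had a log2 change below 0, with medians of -0.66, -0.66 and -0.98. In the receptor list 8 of 11 were below 0 (median -0.35), and in the recruitment list 6 of 9 (median -0.37). The summed level of the NK cell receptor list was 8.55 to 16.04 CPM in ICH-Fabp4fl_fl and 5.01 to 8.66 CPM in ICH-Fabp4CKO, so these ranges just overlapped.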

How the data were processed

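Poly(A) RNA from 12 mouse brain samples, 3 per group, was sequenced. The authors deposited estimated counts per gene, not normalized, with replicates kept apart. The submitters' processing notes name Bowtie2 2.2.8, HISAT2, StringTie 1.3.1 and DESeq2, and the genome build is not given in the sources used here. The deposited estimated counts were rounded to whole numbers, since 7.36 to 8.69% of values per library were not whole. Of 21956 genes, 83 had no symbol and stayed in the tests under their identifiers.

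Groups came from the sample titles. The main test was edgeR 4.0.16 (R 4.3.3): filterByExpr at its default minimums (10 counts, 15 in total), TMM factors, the quasi-likelihood F-test on the 2 groups compared, and Benjamini-Hochberg adjustment over all genes that passed, at 0.05. The difference between genotypes was an interaction over all 12 libraries. SE is the absolute log2 change divided by the square root of F. Ratios carry 95% exact binomial counting intervals, which cover counting error only, and 3 counts in a library were the floor. Where sham held 0 counts, the least fold took 3 counts over the whole sham group. DESeq2 1.42.0, edgeR's exact test, other normalizations and filters, a replicate block and leaving out each library were alternatives. The code was tested on simulated data. Nothing says that libraries of a group came from separate mice beyond their numbering, so p-values measure the spread between these libraries. Within groups, Pearson's r of log2 CPM was 0.899 to 0.990, and no 2 libraries were identical.

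The members and the gene lists were chosen with earlier results of these data known. Genes named were all 10 members, up to 3 genes per list and comparison that passed the test, by smallest p, the relatives of Klrb1c, and the 3 genes most like a member by Pearson's r. Ptprc, Ppp1r1b, Drd1, Rbfox3, Snap25, Slc17a7, Ncr1 and Ifng were named outside this rule, after their values were seen. Lengths came from GENCODE vM21 exons and promoter windows (250 bases before to 50 after the start) from RefSeq on GRCm38.p6. The T cell signalling list in Fabp4CKO after ICH is not reported here.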

Additional observations from a re-analysis of the deposited data

How the results depend on the processing

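Of the members' log2 changes outside leave-one-out, 176 kept their direction and side of the threshold, 4 became called and 1 lost its call. In leave-one-out 121 kept both, 3 became called, 6 lost the call and 8 changed sign. Requiring at least 10 counts in every library left Cd4 as the one member tested, so 0 members were called in either ICH comparison. In Fabp4CKO the count of members called after ICH was 2, and it was 7 with no filter, 8 with DESeq2 and 8 with all 12 libraries in one fit. Leaving out 1 library gave 1 to 5, with 1 without any one Sham-Fabp4CKO library and 5 without ICH-Fabp4CKO library 2. In Fabp4fl_fl leaving out 1 library gave 6 to 9. Between genotypes after ICH the count of 0 became 2 under DESeq2, 1 under the exact test of edgeR and 5 at an unadjusted p, a count that ran from 3 to 5 in leave-one-out. Shares of all genes are not given for DESeq2, the exact test, the fit with no filter, the fit of all 12 libraries or leave-one-out. In sham leave-one-out gave 0 to 1, and the interaction had 1 at an unadjusted p. The log2 change of Cd4 ran in leave-one-out from -0.28 to 1.48 between genotypes after ICH, from -1.52 to 0.47 in Fabp4fl_fl and from -1.19 to 0.79 in the interaction, and that of Cd8a between genotypes after ICH from -1.08 to 0.55. The cause of these shifts was not tested. Relative log expression, total counts and TMM with singleton pairing left the counts of called members at 7, 2, 0, 0 and 0.

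Libraries with the same number did not deviate together throughout: the correlations were 0.196, 0.0230 and 0.127 for ICH against sham in Fabp4fl_fl, and 0.311, -0.166 and -0.575 between genotypes after ICH. With the number as a replicate block 6 members were called in Fabp4fl_fl, 3 in Fabp4CKO, and 0 in the genotype comparisons and the interaction.

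Depth limits the 9 members other than Cd4: in sham tissue 51 of their 54 values were at or under 3 counts, so folds against sham rest on few reads.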

Other observations

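Cd28, a co-stimulatory receptor of T cells, was singled out after its values were seen. It had 4, 3 and 1 counts in Sham-Fabp4fl_fl, 1, 1 and 1 in Sham-Fabp4CKO, 38, 93 and 54 in ICH-Fabp4fl_fl and 262, 27 and 633 in ICH-Fabp4CKO. Its ICH-Fabp4CKO libraries 1 and 3 were above all others and library 2 was below every ICH-Fabp4fl_fl library, an order that Ptprc shared and Cd3e did not.

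Eomes, a T-box transcription factor of cytotoxic lymphocytes that some neurons also express, fell in Fabp4CKO after ICH, with a log2 change of -3.59 (adjusted p = 0.00589, quasi-likelihood test). It had 6, 2 and 108 counts in Sham-Fabp4fl_fl, 93, 106 and 83 in Sham-Fabp4CKO, 1, 9 and 1 in ICH-Fabp4fl_fl and 9, 3 and 6 in ICH-Fabp4CKO. Among the transcription factors tested in that comparison it was the one called, and its levels were high in 4 of the 6 sham libraries, where the members were near the floor.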
